A study of Mus musculus with 5 samples.

Results

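Immune checkpoint receptors and ligands were examined as a set of 10 genes, taken by name (Cd274, Pdcd1lg2, Pdcd1, Ctla4, Havcr2, Lag3, Tigit, Cd80, Cd86 and Vsir) out of 41028 gene names in the deposited matrices, 24299 of which had a unique molecular identifier (UMI, a count of 1 captured transcript molecule) in at least 1 library. The libraries came from mammary tumours of PyMT mice, in which the polyoma middle T antigen drives tumour growth in the mammary epithelium. Tumours were digested, enriched for viable cells and sequenced as single cells on a droplet platform (10x Genomics 3' v2) or a microwell platform (BD Rhapsody, read out over all transcripts). The groups were fresh 10x (2 libraries), stored 10x (1 library, whose digest was held in the cold for 24 h and lost at least 20% of its viability), BD 1 (1 fresh library) and BD 2 (1 library whose title says fresh and whose files are named for 24 h, so that no storage state was assumed for it). All tumours carried the same transgene, and neither strain, age, sex nor the number of mice behind a library was stated, so that p-values measure only the spread between these libraries.

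Checkpoint genes encode surface proteins that raise or lower the response of T cells. PD-1 (Pdcd1) on T cells is engaged by PD-L1 (Cd274) and PD-L2 (Pdcd1lg2), and CTLA-4 (Ctla4) competes with the activating receptor CD28 for CD80 and CD86 on antigen-presenting cells. TIM-3 (Havcr2), LAG-3 (Lag3), TIGIT (Tigit) and VISTA (Vsir) are further inhibitory proteins, some of which are also known from myeloid cells.

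The libraries held 29166129 to 59957945 UMIs from up to 4186 cells each, and the 10 genes together were a small part of them: Vsir had 5182 UMIs over the 5 libraries, Cd86 had 1072, Havcr2 had 963, and the other 7 genes had between 59 (Tigit) and 362 (Cd274). Between 0 and 5 cell barcodes were shared by any pair of libraries, except for 24 shared by BD 1 and BD 2. Cells were clustered without the 10 genes and named from markers. The classes used here held 289 T-like, 125 NK-like, 508 macrophage-like, 35 dendritic-like, 10795 epithelial-like, 1189 fibroblast-like and 419 endothelial-like cells, and 2002 cells stayed unnamed. Of the fixed markers, 8 of 8 T cell, 4 of 7 NK cell, 7 of 7 macrophage, 5 of 9 dendritic, 8 of 8 epithelial, 6 of 6 fibroblast and 7 of 7 endothelial genes were found in at least 10% of the cells of their class. The NK-like cells also carried 8 of 8 T cell markers, which summed to 40.5 UMIs per 10000 against 16.0 for the NK cell markers and against 67.3 for T cell markers in T-like cells. Their CD3 genes stood at 22.4 per 10000, beside 33.3 in T-like cells. The name rests on a score of the fixed NK cell markers, each scaled to the cluster where it was highest, and not on summed levels. Ncr1, and Klrd1, which is not a fixed marker, were among the leading genes of the cluster. T cells within the class were not told apart. No B cell class was named. The dendritic-like cells also carried 5 of 5 markers of plasmacytoid dendritic cells, which summed to 19.3 UMIs per 10000, above the 17.8 of the dendritic cell markers. The median mitochondrial share per cell was 6.14% to 7.17% in the 10x libraries, 15.2% in BD 1 and 19.8% in BD 2.

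On mouse build GRCm38.p6 (RefSeq), Cd274 lies on chromosome 19 at 29362107 to 29388095 with Pdcd1lg2 beside it at 29410919 to 29472927. Pdcd1 and Ctla4 both lie on chromosome 1, at 94038305 to 94052553 and at 60909025 to 60915832. Havcr2 lies on chromosome 11 at 46454931 to 46481255, Lag3 on chromosome 6 at 124904359 to 124912434, and Vsir on chromosome 10 at 60346851 to 60430294. Chromosome 16 holds Cd86 at 36568956 to 36666158, Cd80 at 38457430 to 38495958 and Tigit at 43626137 to 43665125. The submitters' processing notes name mm10, the same assembly. In this annotation Tigit overlaps Zbtb20 (29330 UMIs over the 5 libraries), Cd274 overlaps Plgrkt (10564 UMIs), and Vsir overlaps Cdh23 (66 UMIs) and Gm17455 (128 UMIs). The sources used here do not say how reads shared by overlapping genes were assigned, and the counts of these 3 members are less certain than those of the others.

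Ctla4 and Pdcd1 had the same leading cell group in the results that follow. Their RefSeq promoters (build GRCm38.p6, 250 bases before to 50 after the start, printed on the strand of the gene) are shown with each match to GGAAA on either strand in capitals. GGAAA is the core of sites bound by NFAT, a transcription factor of activated T cells. The Ctla4 promoter spans chr1:60908775-60909074 and the Pdcd1 promoter, on the minus strand, chr1:94052504-94052803.
Ctla4: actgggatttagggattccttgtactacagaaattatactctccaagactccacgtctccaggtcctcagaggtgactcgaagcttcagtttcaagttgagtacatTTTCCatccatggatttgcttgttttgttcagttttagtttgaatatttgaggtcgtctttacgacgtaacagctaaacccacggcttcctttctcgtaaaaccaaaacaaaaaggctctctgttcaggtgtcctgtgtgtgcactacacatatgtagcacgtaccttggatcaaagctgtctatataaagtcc
Pdcd1: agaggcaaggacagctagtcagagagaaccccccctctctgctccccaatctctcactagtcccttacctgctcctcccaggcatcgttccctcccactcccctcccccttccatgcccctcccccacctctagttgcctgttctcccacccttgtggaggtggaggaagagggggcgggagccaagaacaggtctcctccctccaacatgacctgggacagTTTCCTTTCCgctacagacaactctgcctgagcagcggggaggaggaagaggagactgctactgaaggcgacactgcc
The Ctla4 window held 0 matches on the printed strand and 1 on the other, and the Pdcd1 window 0 and 2, the latter side by side. Of 32851 promoters of this length, 61.3% held at least 1 match, so the match does not set these genes apart.

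**Figure D1:**
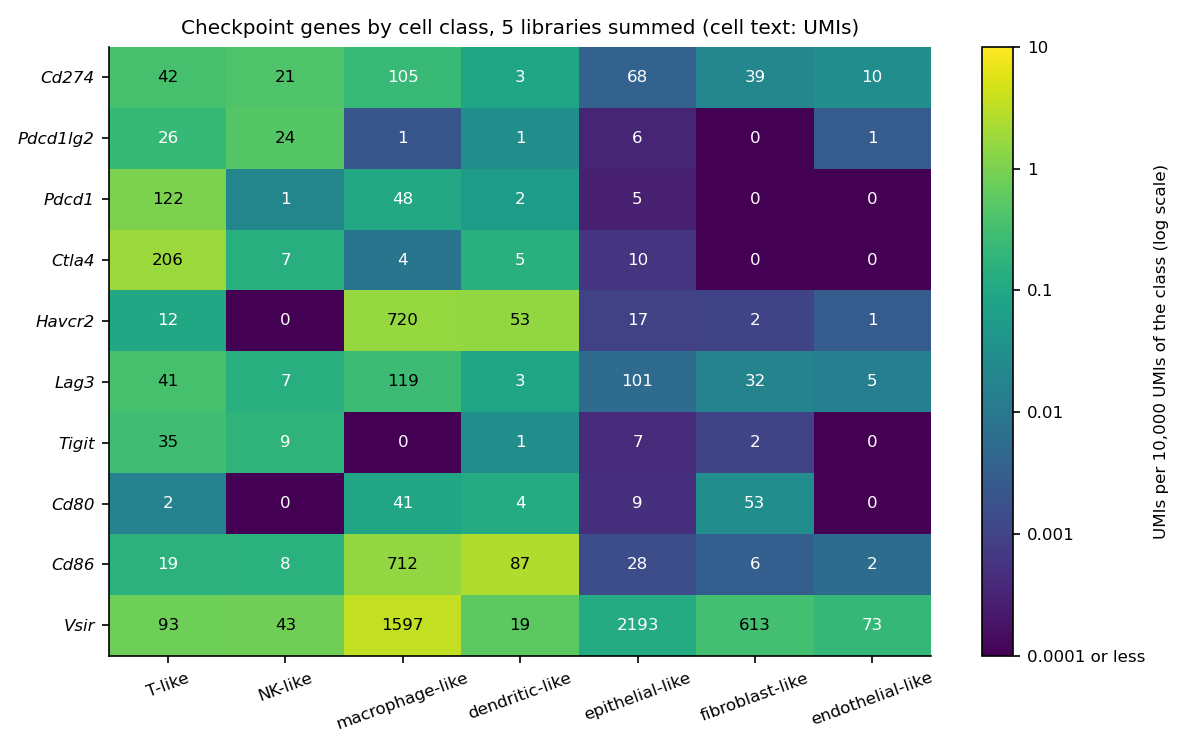
UMIs of each of the 10 genes (rows) in 7 cell classes (columns), summed over the 5 libraries. Colour gives UMIs per 10000 UMIs of the class on a log scale, and the number in each cell is the UMI count. Ctla4 and Pdcd1 are brightest in T-like cells, Havcr2, Cd86 and Vsir in macrophage-like and, for Havcr2 and Cd86, dendritic-like cells, and Pdcd1lg2 in NK-like and T-like cells.

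Levels are given as UMIs per 10000 UMIs of a class, and are compared between classes or libraries for 1 gene at a time. Intervals are exact Poisson intervals for levels and exact Clopper-Pearson intervals for shares of cells, at 95%. Where a count is 0, the limit given is instead that of 3 counts over the UMIs or cells of the group, which is lower than the upper end of the 95% interval. For cells it limits the share with a detected UMI at the depth of that class, not the share that expresses the gene. Intervals and limits cover counting error only. In sums over whole classes, fewer cells of a kind and less RNA per cell cannot be told apart. The counts listed by class need not add up to a gene's total, since small classes and unnamed cells are not always listed.

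Cd274, the PD-1 ligand PD-L1, was spread over several classes. Of its 362 UMIs, 105 (29.0%) were in macrophage-like cells, 68 in epithelial-like, 42 in T-like, 39 in fibroblast-like and 21 in NK-like cells. In macrophage-like cells its level was 0 for fresh 10x 1 (0 UMIs in 41 cells), 0.253 for fresh 10x 2, 0.220 for stored 10x, 0.260 for BD 1 and 0.232 for BD 2. The 4 libraries with a UMI lay close together. In T-like cells it was 0.368, 0.0902, 0.231, 0.409 and 0.437 in the same order, and in NK-like cells 0.352, 0, 0.464, 0.942 and 0.369. The means were 0.425 ± 0.339 (SD, n = 5) in NK-like, 0.307 ± 0.145 in T-like and 0.193 ± 0.109 in macrophage-like cells, and these 3 classes overlapped from library to library. The epithelial-like level was between 0.0026 and 0.0056 in all 5 libraries, below every value above 0 in the 3 immune classes.

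Within macrophage-like cells the Cd274 UMIs were concentrated in 1 cluster. Its leading genes were Gpnmb, Mmp12, Lyz2 and Msr1, with Rsad2 and Cxcl10, which interferons induce, among the first 10. Its 78 cells held 87 of the 105 UMIs, and 29 of them (37.2%) had at least 1. The level there was 0 for fresh 10x 1 (2 cells), 1.59 for fresh 10x 2, 1.35 for stored 10x, 0.727 for BD 1 and 0.831 for BD 2. The cluster led by Cd74 and C1qa had 0 Cd274 UMIs in 155 cells, that led by Ccl8 and Mrc1 had 3 in 97 cells, and that led by Il1a and Cd83 had 15 in 178 cells. These clusters were formed without Cd274, but they were compared after their values were seen, and no test was made.

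Pdcd1lg2, the second PD-1 ligand, had its highest levels in T-like and NK-like cells. Of its 80 UMIs, 26 were in T-like, 24 in NK-like, 20 in unnamed and 6 in epithelial-like cells. Macrophage-like, dendritic-like and endothelial-like cells had 1 each and fibroblast-like cells 0. The NK-like level was 0.703 for fresh 10x 1 (12 UMIs), 0.154 for fresh 10x 2, 0.155 for stored 10x, 0.673 for BD 1 and 0.369 for BD 2. The T-like level was 0.245, 0.0902, 0.184, 0.136 and 0.340 in that order. Each of the 5 libraries had Pdcd1lg2 in both lymphoid classes, whereas in macrophage-like cells 4 of 5 were at 0. The UMIs were scattered: 22 of 125 NK-like cells held the 24 UMIs, with at most 2 in 1 cell, and 21 of those 22 also held a transcript of CD3 or of a T cell receptor constant region. A UMI was found in 17.6% of NK-like cells (11.4% to 25.4%, median 3762 UMIs per cell) and in 0 of 1189 fibroblast-like cells (median 14139 UMIs), which allows a share with a UMI of up to 0.252%. At an equal depth of 2000 UMIs the expected share in NK-like cells was 10.1%.

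Cd86, a ligand of CD28 and CTLA-4, was a myeloid transcript in these tumours. Macrophage-like cells held 712 of 1072 UMIs (66.4%) and the 35 dendritic-like cells another 87. In macrophage-like cells the level was 3.21 for fresh 10x 1, 2.76 for fresh 10x 2, 1.98 for stored 10x, 1.19 for BD 1 and 1.36 for BD 2, so that the 3 10x libraries were above the 2 BD libraries. A Cd86 UMI was found in 59.6% of macrophage-like cells (55.2% to 63.9%), and in 26.8% at 2000 UMIs. In dendritic-like cells the level was 4.12 for fresh 10x 2, 1.96 for stored 10x, 3.03 for BD 1 and 1.22 for BD 2, and fresh 10x 1 had no such cell. In stored 10x, 1 of the 8 dendritic-like cells held 3689 haemoglobin-type UMIs (erythroid markers), which adds to the total its level is divided by. In epithelial-like cells it was at most 0.0031.

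Cd80, the other B7 ligand, had 141 UMIs, and the class with the most of them was not myeloid. Fibroblast-like cells held 53, macrophage-like cells 41 and unnamed cells 32. Per 10000 UMIs the pooled level was 0.0906 in macrophage-like, 0.0303 in unnamed and 0.0282 in fibroblast-like cells, and 0.117 in dendritic-like cells on only 4 UMIs. The macrophage-like level was 0.0406 for fresh 10x 1 (1 UMI), 0.0844 for fresh 10x 2, 0.102 for stored 10x, 0.103 for BD 1 and 0.0775 for BD 2. The fibroblast-like level was 0.0077, 0.026, 0.0078, 0.046 and 0.0324, lower than the macrophage-like level in each library. The 53 fibroblast UMIs were in 42 cells, 3 of which had a C1q UMI and 0 a Ptprc UMI (Ptprc marks blood cells, C1q genes mark macrophages). Both fibroblast-like clusters held Cd80, with 39 UMIs in the 758 cells led by Clec3b, Efemp1 and Dpt and 14 in the 431 cells led by Spon1, Thbs4 and Lrrc15. Endothelial-like cells (0 of 419) and NK-like cells (0 of 125) had none, which allows shares with a UMI of up to 0.716% and 2.4%. Their median depths were 6547 and 3762 UMIs per cell, and Cd80 was found in only 6.10% of macrophage-like cells at 7399. Among the myeloid clusters, 14 of the 15 Cd80 UMIs in the unnamed cluster led by Lyz2, Ccr2 and Clec10a came from BD 1.

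Ctla4, the inhibitory receptor for CD80 and CD86, had 206 of its 274 UMIs (75.2%) in T-like, 38 in unnamed and 7 in NK-like cells. Its T-like level was 2.82 for fresh 10x 1, 1.90 for fresh 10x 2, 2.95 for stored 10x, 1.58 for BD 1 and 0.970 for BD 2. The lowest of these was above the highest NK-like value (0.307, fresh 10x 2). The mean was 2.04 ± 0.839 (SD, n = 5) in T-like, 0.173 ± 0.112 in NK-like and 0.021 ± 0.026 in macrophage-like cells. A UMI was found in 22.8% of T-like cells (18.1% to 28.1%, median 3356 UMIs per cell), 14.6% at 2000 UMIs, and in 0 of 1189 fibroblast-like cells.

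The T-like class was made of 4 clusters, and Ctla4 was nearly all in 1 of them. The cluster led by Tnfrsf4, Il2ra, Klrg1, Foxp3 and Ikzf2, genes known from regulatory T cells, had 64 cells and 188 of the 206 UMIs, and 56 of its cells (87.5%) had at least 1. Its level was 6.95 for fresh 10x 1, 5.52 for fresh 10x 2, 13.5 for stored 10x, 5.55 for BD 1 and 5.06 for BD 2. Outside it, no T-like cluster reached 1 UMI per 10000 in any library. When T-like cells were split by transcripts instead, the 44 cells with a Foxp3 UMI had a Ctla4 level of 6.20. The 92 cells with Cd8a or Cd8b1 had 0.069, and cells with a Foxp3 or Cd4 UMI were left out of this group. The 4 clusters were unevenly filled: fresh 10x 1 had 0 cells of the Gzmb cluster described with Lag3, and stored 10x had 39 of its 79 T-like cells in the cluster led by Trac, Cd8b1 and Tcf7.

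Pdcd1, the receptor PD-1, had 122 of its 210 UMIs (58.1%) in T-like and 31 in unnamed cells. The T-like level was 0.490 for fresh 10x 1 (4 UMIs), 0.541 for fresh 10x 2 (6 UMIs), 1.89 for stored 10x, 1.31 for BD 1 and 0.558 for BD 2. Stored 10x and BD 1 were high and the other 3 libraries lay together. The Foxp3 cluster held 89 of these UMIs, at 0.662, 1.58, 5.71, 4.33 and 2.32 in the same order. A second cluster, led by Cxcr6, Il7r, Trdc, Cd163l1 and Il17a (genes of interleukin 17-producing gamma-delta T cells), held 26 UMIs in 44 cells, 14 of them in stored 10x. In that cluster Trdc was found in 47.7% of cells and Foxp3 in 0. The other 2 clusters held 6 UMIs in 114 cells (Trac, Cd8b1, Tcf7) and 1 UMI in 67 cells (Gzmb, Tcrg-C2). NK-like cells had 1 UMI.

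**Figure D2:**
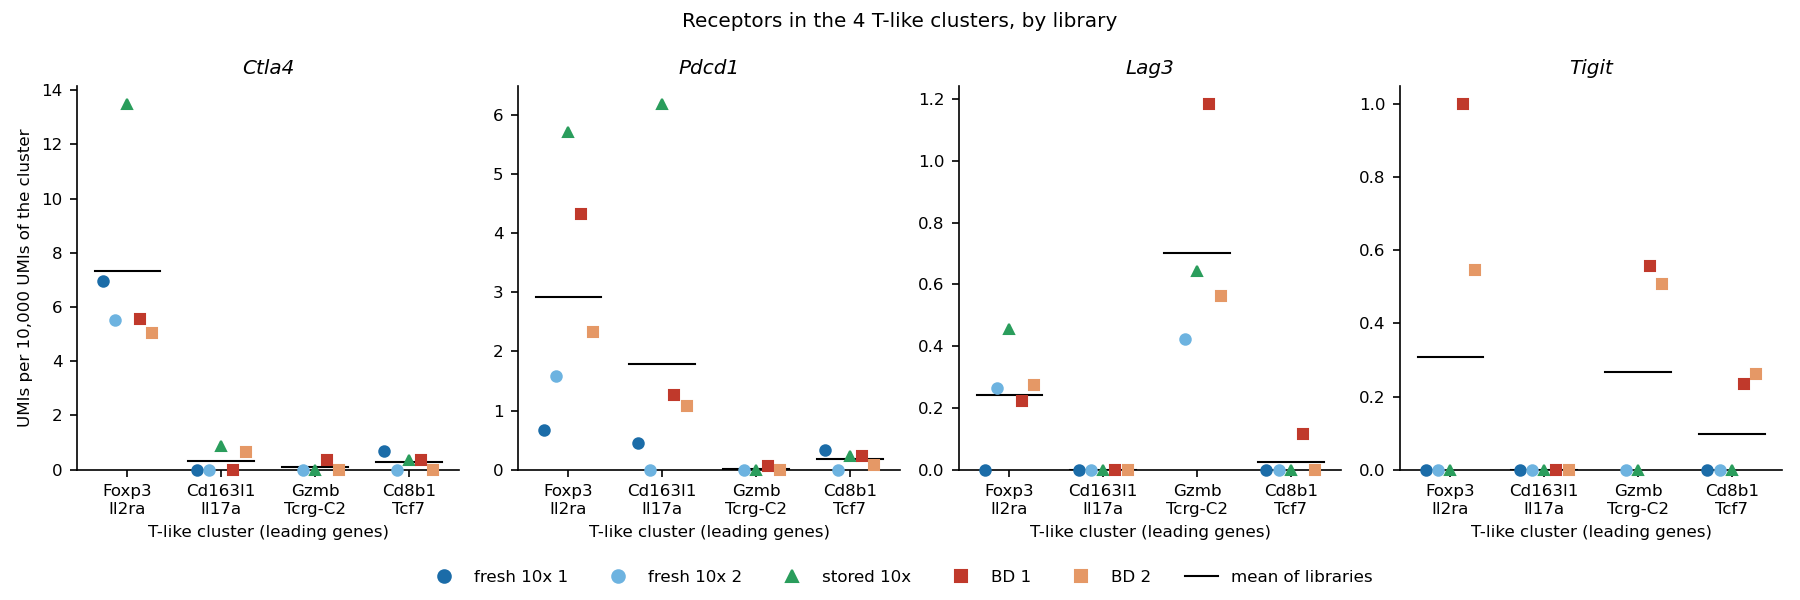
UMIs per 10000 UMIs of each T-like cluster (x axis, by leading genes) for Ctla4, Pdcd1, Lag3 and Tigit. Points are libraries and bars their means. Ctla4 is at 5.06 or more in all 5 libraries in the Foxp3 cluster, Lag3 is highest in the Gzmb cluster, and Tigit is above 0 in BD 1 and BD 2 only.

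Pdcd1 was also found in macrophage-like cells, with 48 UMIs in 36 cells. The level there was 0.406 for fresh 10x 1, 0.225 for fresh 10x 2, 0.152 for stored 10x, 0.0294 for BD 1 and 0.116 for BD 2, above 0 in each library and higher in the 3 10x libraries than in the BD libraries. All 36 cells had a C1q UMI, and 4 of them had a UMI of CD3 or of a T cell receptor constant region. The macrophage-like class as a whole had such a UMI in 4.72% of its cells. T-like cells had 206 Ctla4 and 122 Pdcd1 UMIs, while macrophage-like cells had 4 and 48. Per 100 UMIs of the CD3 genes, Pdcd1 had 3.08 in T-like and 65.8 in macrophage-like cells. Doublets were not fully removed, and the part of T cell RNA in these counts was not tested. By cluster, 26 of the 48 UMIs were in the cells led by Cd74 and C1qa and 19 in those led by Il1a and Cd83. The Ccl8 cluster had 1 and the Gpnmb cluster had 2.

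**Figure D3:**
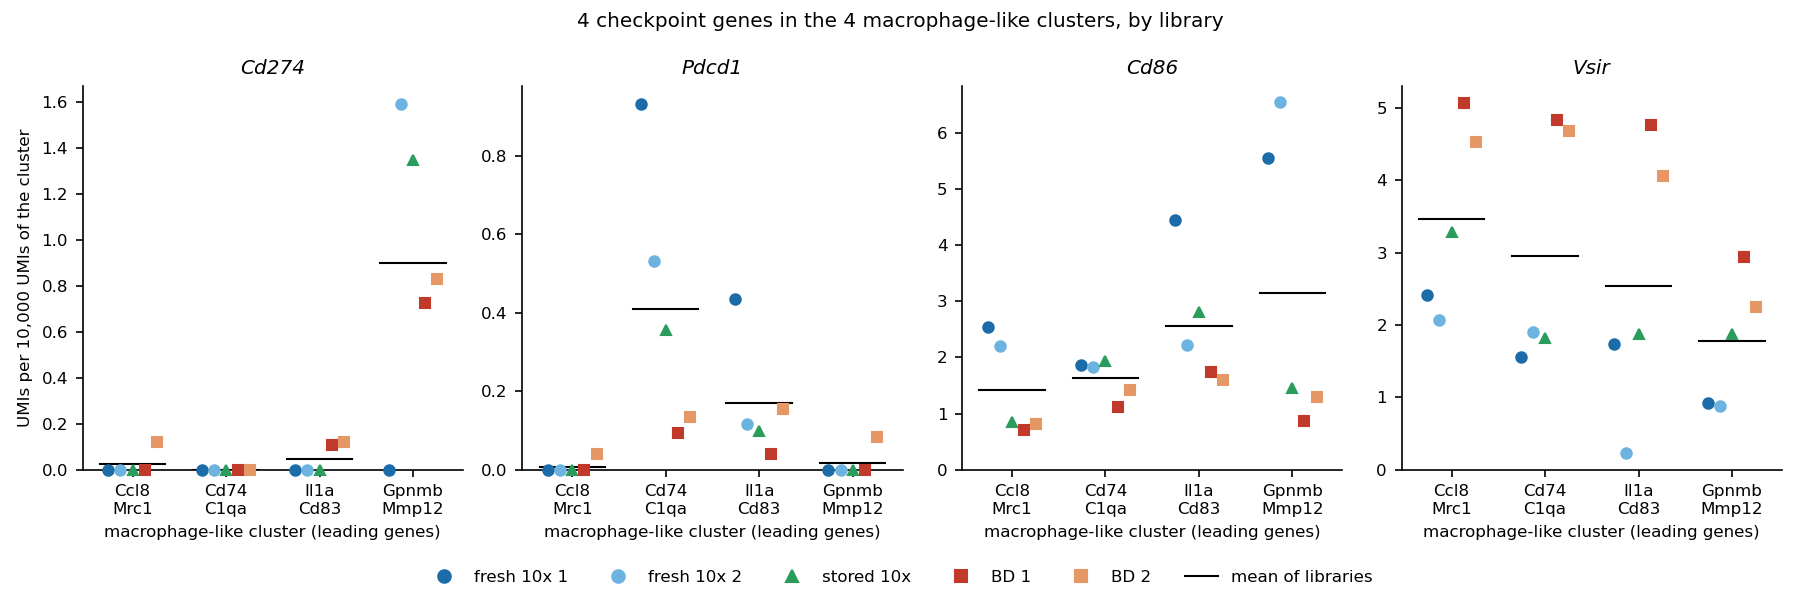
UMIs per 10000 UMIs of each macrophage-like cluster (x axis, by leading genes) for Cd274, Pdcd1, Cd86 and Vsir. Points are libraries and bars their means. Cd274 stands out in the Gpnmb cluster in 4 of 5 libraries, Pdcd1 lies in the Cd74 and Il1a clusters, and Vsir is higher in BD 1 and BD 2 than in the 10x libraries in each cluster.

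Havcr2 (TIM-3), often used to describe exhausted T cells, was a myeloid transcript in these data. Macrophage-like cells held 720 of 963 UMIs (74.8%), dendritic-like cells 53, T-like cells 12 and NK-like cells 0. The macrophage-like level was 0.853 for fresh 10x 1, 1.24 for fresh 10x 2, 0.897 for stored 10x, 1.75 for BD 1 and 1.90 for BD 2, the BD libraries lying above the 10x libraries. The dendritic-like level was 1.29 for fresh 10x 2, 2.61 for stored 10x, 1.36 for BD 1 and 1.48 for BD 2, within the range of the macrophage-like values but for stored 10x. A UMI was found in 56.3% of macrophage-like cells (51.9% to 60.7%, median 7399 UMIs), 23.6% at 2000 UMIs, and in 2 of 1189 fibroblast-like cells. The 12 T-like UMIs were all in the Foxp3 cluster, in 6 of its 64 cells. In NK-like cells 0 UMIs allow a level of up to 0.0588.

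Lag3, a receptor for MHC class II, had no single class. Macrophage-like cells held 119 of 354 UMIs, epithelial-like 101, T-like 41 and fibroblast-like 32. The T-like level was 0 for fresh 10x 1, 0.271 for fresh 10x 2, 0.277 for stored 10x, 0.545 for BD 1 and 0.291 for BD 2. The macrophage-like level was 0.325, 0.141, 0.271, 0.25 and 0.302, so the 2 classes overlapped. The 101 epithelial UMIs were spread over 94 of 10795 cells, at a level between 0.0044 and 0.0069. Among T-like cells, 33 of the 41 UMIs were in the cluster led by Cd7, Gzmb, Tcrg-C2 and Xcl1, in 23 of its 67 cells (34.3%). In that cluster Gzmb was found in 68.7% of cells, Cd8a in 55.2%, Trdc in 46.3% and Cd8b1 in 4.48%. The cluster led by Trac and Cd8b1 held 1 Lag3 UMI in 114 cells.

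Tigit was a receptor of T-like and NK-like cells that was almost limited to the BD platform. Of its 59 UMIs, BD 1 had 31, BD 2 had 26 and fresh 10x 1 had 2, while fresh 10x 2 and stored 10x had 0. T-like cells held 35, at a level of 0.518 in BD 1 and 0.388 in BD 2, and NK-like cells 9. Within T-like cells 13 were in the Foxp3 cluster, 17 in the Gzmb cluster, 5 in the Trac and Cd8b1 cluster and 0 in the Il17a cluster. The 3 10x libraries had 0 in their T-like cells, where 0 allows up to 0.368, 0.271 and 0.138. In fresh 10x 1 the upper end of the 95% interval, 0.452, is above the BD 2 level, so a difference from BD 2 was not detectable there at this depth. In fresh 10x 2 it is 0.333, below both BD levels but inside the intervals of BD 1 (0.312 to 0.808) and BD 2 (0.222 to 0.630). In stored 10x it is 0.170, below both intervals. Macrophage-like cells had 0 UMIs in 508 cells, which allows a level of up to 0.0066.

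Vsir (VISTA) was the member detected most widely. Epithelial-like cells held 2193 of 5182 UMIs (42.3%), macrophage-like cells 1597 and fibroblast-like cells 613. Per 10000 UMIs the macrophage-like cells led in 4 of 5 libraries, with 1.87 for fresh 10x 1, 1.38 for fresh 10x 2, 2.08 for stored 10x, 4.28 for BD 1 and 3.92 for BD 2. In fresh 10x 2 the NK-like level was also 1.38, from 9 UMIs in 13 cells. The epithelial-like level was 0.0659, 0.0776, 0.10, 0.153 and 0.169. NK-like cells (mean 0.948 ± 0.331, SD, n = 5) and T-like cells (0.703 ± 0.219) lay between, and their values overlapped. A Vsir UMI was found in 76.0% of macrophage-like cells and 15.1% of epithelial-like cells, or 45.0% and 2.55% at 2000 UMIs. Dendritic-like cells were at 0.589 for fresh 10x 2, 0.434 for stored 10x, 0.731 for BD 1 and 0.436 for BD 2, below the macrophage-like level of the same library each time.

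**Figure D4:**
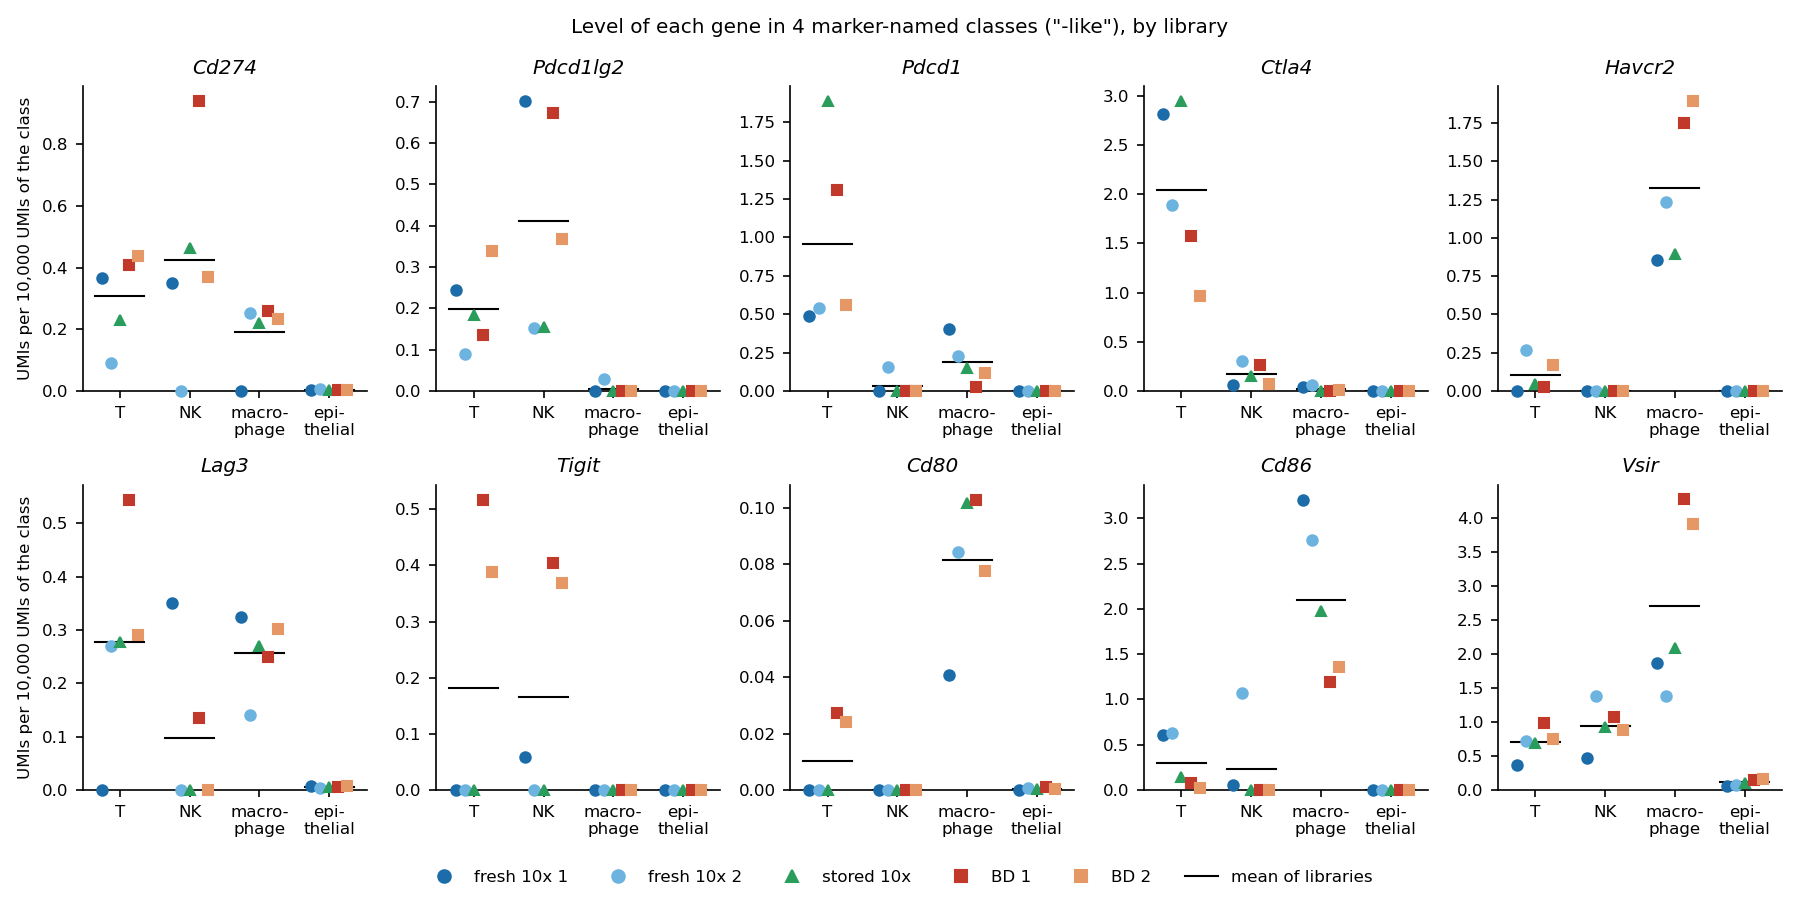
UMIs per 10000 UMIs of T-like, NK-like, macrophage-like and epithelial-like cells for each of the 10 genes. Points are libraries and bars their means. Ctla4 in T-like and Havcr2, Cd86 and Vsir in macrophage-like cells are above 0 in each library, and BD 1 and BD 2 stand apart from the 10x libraries for Tigit, Havcr2, Cd86 and Vsir.

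Several receptors were found in the same T-like cells. Of 289 T-like cells, 45 (15.6%) had UMIs of at least 2 of Pdcd1, Ctla4, Havcr2, Lag3 and Tigit, with 2 cells for fresh 10x 1, 5 for fresh 10x 2, 12 for stored 10x, 15 for BD 1 and 11 for BD 2. Among 125 NK-like cells there were 0, which allows a share with detected UMIs of up to 2.4%, at median depths of 3762 UMIs per NK-like and 3356 per T-like cell.

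The class levels were tested on UMI sums per class and library with edgeR's quasi-likelihood test and the library as a term, using classes with at least 10 cells. Log2 fold changes are given with an approximate SE, the absolute change divided by the square root of the F statistic of the test. A gene was called at an adjusted p under 0.05, adjusted over all genes tested. Macrophage-like against epithelial-like cells, 7 of the 9 members tested were higher and 0 lower, where 62.9% of all 11182 genes were called. Of all genes, 27.9% were called higher and 35% lower. The filter on low counts ran over all classes at once. A member near 0 in epithelial-like cells passed it only through classes where it was high. Its call as higher against epithelial-like cells was then largely given beforehand and is not independent support. The largest were Havcr2 at 10.32 ± 0.28 and Cd86 at 10.24 ± 0.32, and Vsir was 4.67 ± 0.17 higher. Cd274 was 5.81 ± 0.41 and Lag3 5.59 ± 0.37 higher. Pdcd1lg2 (2.30 ± 1.73, adjusted p = 0.256) and Tigit, at 0 in macrophage-like cells, were not called. Cd80 did not pass the filter on low counts in these class sums and was not tested. With no filter, 10 members were tested and 8 were called higher. Ctla4 was called at 3.93 ± 1.22 (adjusted p = 0.00665) on 4 UMIs in macrophage-like cells, and lost the call without fresh 10x 2 (adjusted p = 0.0938). The median over the 9 members was 5.59, beside -0.17 over all genes.

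T-like against epithelial-like cells, all 9 members tested were higher in edgeR, where 53.5% of all genes were called. DESeq2 called 8 of the 9. Of all genes, 21% were called higher and 32.5% lower. Ctla4 (10 UMIs), Pdcd1 (5), Pdcd1lg2 (6) and Tigit (7) were near 0 in epithelial-like cells. They passed the filter through other classes, so their calls as higher were largely given beforehand. Ctla4 led with 11.04 ± 0.47, followed by Pdcd1 at 10.79 ± 0.61. Vsir had the smallest difference, 2.30 ± 0.24. The 19 Cd86 UMIs and 12 Havcr2 UMIs in T-like cells sufficed for differences of 6.48 ± 0.85 and 6.03 ± 0.79. The T-like class as a whole carried 6.81 UMIs per 10000 of the macrophage markers, against 143 in macrophage-like and 0.124 in epithelial-like cells. None of these 7 markers reached 10% of T-like cells and none was at 0, and their part in these 2 values was not tested.

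T-like against macrophage-like cells split the set, with 4 members higher, 3 lower and 2 not called, where 34.5% of all genes were called. Higher in T-like cells were Ctla4 by 7.11 ± 0.57, Pdcd1lg2 by 5.97 ± 1.00, Pdcd1 by 2.46 ± 0.50 (adjusted p = 0.000234) and Tigit. With 35 UMIs against 0, the Tigit level in T-like cells was at least 44.4-fold higher, taking 3 counts over the 508 macrophage-like cells as the floor. These Tigit UMIs came from BD 1 (19) and BD 2 (16), and T-like cells of the 10x libraries had 0. Ctla4 (4 UMIs), Pdcd1lg2 (1) and Tigit (0) were at or near 0 in macrophage-like cells. They passed the filter on low counts through other classes, so their calls as higher were largely given beforehand. Lower in T-like cells were Havcr2 by a log2 change of -4.29 ± 0.36, Cd86 by -3.77 ± 0.40 and Vsir by -2.37 ± 0.21. Cd274 (0.26 ± 0.43, adjusted p = 0.707) and Lag3 (-0.04 ± 0.41, adjusted p = 0.973) did not pass. In the edgeR and DESeq2 tests Tigit was called only by the first, with a DESeq2 adjusted p of 0.483.

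NK-like against T-like cells, 2 of 9 members were lower and 0 higher, where 1.22% of all genes were called and 0.948% were called lower. Ctla4 changed by -3.87 ± 0.56 (edgeR adjusted p = 0.000228) and Pdcd1 by -5.77 ± 1.06 (adjusted p = 0.00281). Both rest on few NK-like UMIs, 7 and 1. Both genes passed the filter on low counts through other classes, so their calls as lower were largely given beforehand. Most T-like UMIs of both were in the Foxp3 cluster, so the change does not describe the other T-like clusters. Without stored 10x the Pdcd1 call was lost at an edgeR adjusted p of 0.0501, and DESeq2 gave Ctla4 an adjusted p of 0.0730. Pdcd1lg2 was at 0.90 ± 0.61 (adjusted p = 0.699) and Cd274 at 0.21 ± 0.54 (adjusted p = 0.989).

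Dendritic-like cells were too few for sums of 10 cells in all but 1 library. With sums of at least 5 cells, a limit chosen after the cell numbers were seen, 1 of 9 members was called against macrophage-like cells, where 16.8% of all 11666 genes were called. Vsir was lower by a log2 change of -2.92 ± 0.31. Cd86 (0.03 ± 0.31, adjusted p = 0.994) and Havcr2 (-0.40 ± 0.28, adjusted p = 0.390) did not pass. Ctla4, with 5 UMIs in dendritic-like cells, was at 3.45 ± 1.28 (adjusted p = 0.0618).

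Partner genes of the set were read from 4 lists. Only the 10 members were left out of the clustering, so list genes could help form the classes they were compared between. Their class differences describe the classes and are not independent support. Of the ligands and partners of the members, 11 of 13 could be tested between classes. T-like against macrophage-like cells, 4 were higher, 3 lower and 4 not called, with a median of 0.30 beside -0.10 over all genes. Of all genes, 13.8% were higher and 20.7% lower in this comparison. Cd96 (6.31 ± 0.59) and Cd226 (6.22 ± 0.55), receptors that share the ligands of TIGIT, and Cd28 (5.88 ± 0.59), the receptor that shares the ligands of CTLA-4, were higher in T-like cells. Lgals9, which encodes galectin-9, a reported TIM-3 ligand, was lower by a log2 change of -1.52 ± 0.16. Selplg, a reported VISTA partner, was 9.26 ± 0.25 higher in macrophage-like and 10.13 ± 0.25 higher in T-like than in epithelial-like cells. Nectin3 was 1027 UMIs in epithelial-like against 1 in macrophage-like cells (log2 change -4.53 ± 0.74).

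Of 27 other costimulatory and inhibitory genes, 23 were tested. T-like against macrophage-like cells, 12 were higher, 6 lower and 5 not called, beside the 13.8% and 20.7% of all genes. Icos, a costimulatory receptor, was 7.88 ± 0.48 and Klrg1, an inhibitory receptor, 9.21 ± 0.74 higher. Cd40lg had 31 UMIs in T-like and 0 in macrophage-like cells and its receptor gene Cd40 had 0 and 78, which gives differences of at least 39.3-fold higher and at least 6.83-fold lower in T-like cells. NK-like against T-like cells, 1 was higher, 4 lower and 18 not called, where 0.268% of all genes were higher and 0.948% lower. Among the lower ones were Tnfrsf4 (OX40), at 2 against 389 UMIs (-6.51 ± 0.57), and Icos (-3.26 ± 0.41). Dendritic-like cells had 307 UMIs of Btla, an inhibitory receptor, against 7 in macrophage-like cells (8.64 ± 0.52), and 3 against 1306 of Sirpa (-5.44 ± 0.61). Btla was among the leading genes of the dendritic-like cluster.

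Of 7 genes of the interferon gamma axis, which induces Cd274 in many cells, 5 were higher, 1 lower and 1 not called in T-like against macrophage-like cells, again beside 13.8% and 20.7% of all genes. Ifng itself had 39 UMIs in T-like and 2 in macrophage-like cells (5.43 ± 0.90), and Ifngr2, a subunit of its receptor, had 24 and 572 (-3.05 ± 0.29). Of 9 T cell state regulators, 7 were higher and 2 lower in that comparison with the same shares over all genes, with Foxp3 at 6.77 ± 0.68 and Tcf7 at 6.65 ± 0.58. In NK-like against T-like cells 3 of the 9 were lower and 0 higher, beside 0.948% and 0.268% of all genes. Foxp3 was at 0 in NK-like cells and at 167 UMIs in T-like cells (at least 23.9-fold lower), and Il2ra was lower by a log2 change of -2.69 ± 0.47.

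Over 37 class and library sums and 15493 genes, the genes whose log2(CPM + 10) followed each member most closely were read off as a description, with Pearson's r. The sums share libraries and classes, so they are not independent. Ctla4 was most like Cd6 (0.95), Cd5 (0.94) and Tnfrsf4 (0.93), and Pdcd1 like Cd5 (0.87), Ctla4 (0.85) and Tnfrsf4 (0.85). Havcr2 was most like Tifab (0.97), Ciita (0.95) and Zmynd15 (0.95), Cd86 like Ly86, Aif1 and Adgre1 (each 0.94), and Vsir like Il10ra (0.91), Cd84 (0.89) and Lilr4b (0.88). Pdcd1lg2 was most like Ly6g5b (0.94), Il2rb (0.93) and Cd226 (0.93), and Cd274 like Ctse (0.89), Ptk2b (0.87) and Rasal3 (0.86). Cd80 was most like Cyp27a1 (0.92), Fndc7 (0.91) and Naip5 (0.89), and Tigit like Ighd (0.89), Carmil2 (0.88) and Pim2 (0.88). Lag3 had the weakest best match, Tlr1 at 0.79, then Il21r and AI504432 (each 0.78).

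**Figure D5:**
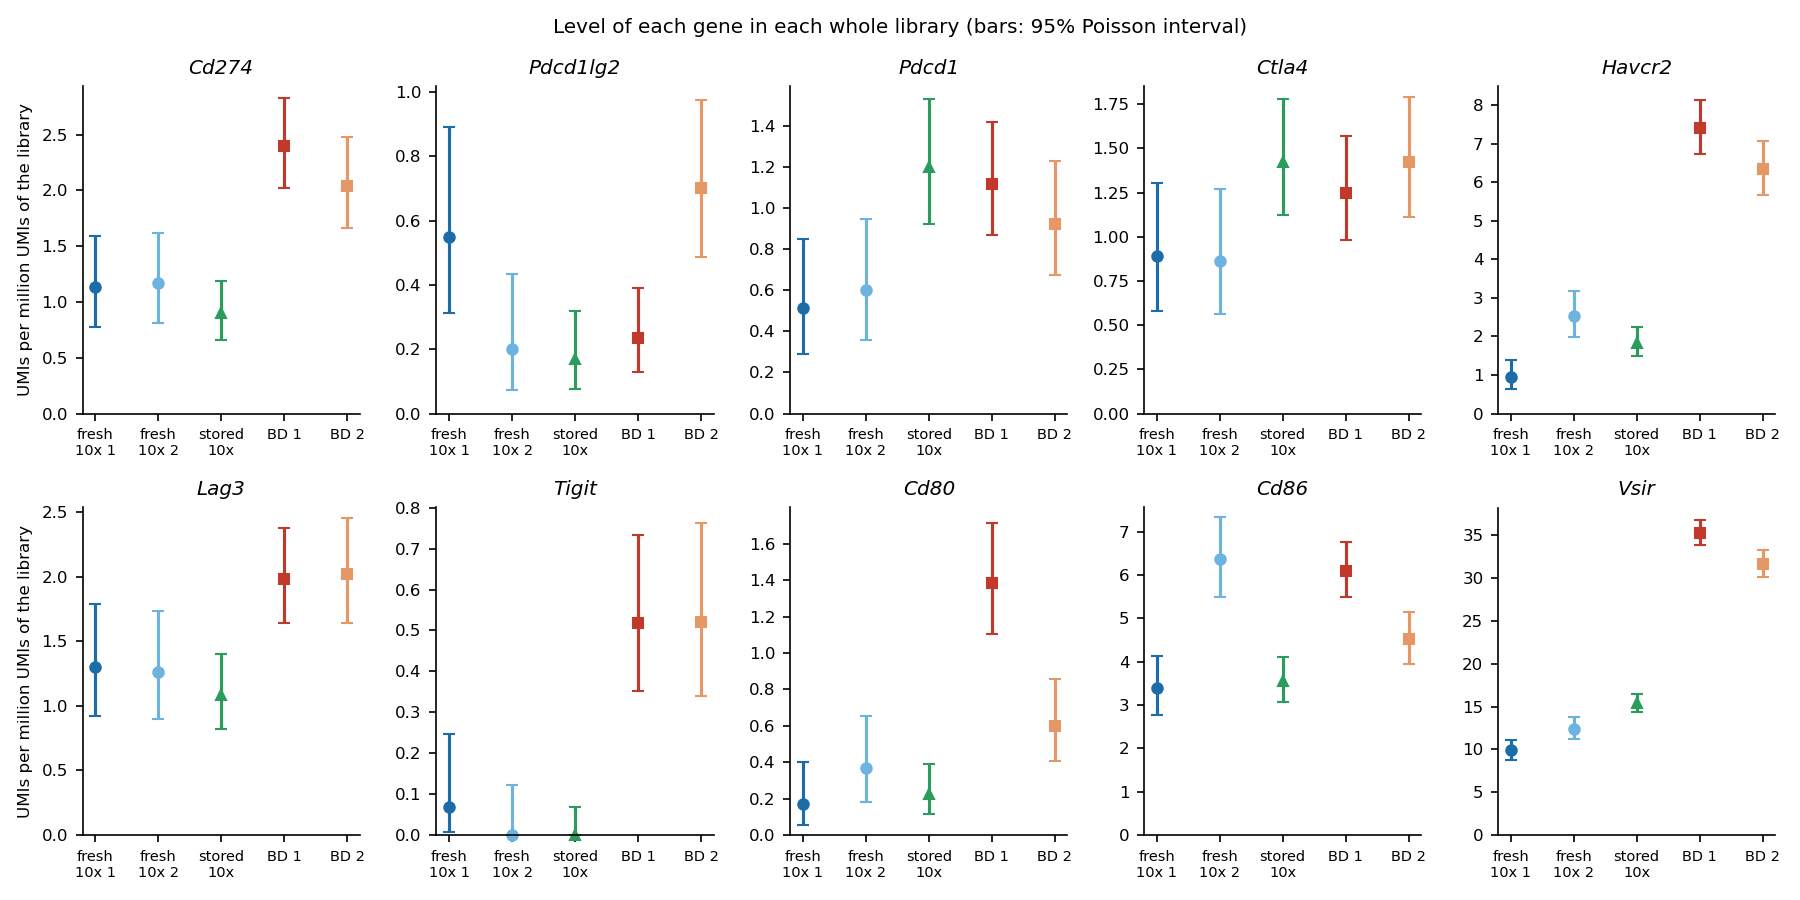
UMIs per 1000000 UMIs of each whole library (y axis) for the 10 genes. Bars are 95% Poisson intervals and cover counting error only. Tigit, Vsir, Havcr2, Cd80, Cd274 and Lag3 lie higher in BD 1 and BD 2 than in all 3 10x libraries.

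Whole libraries were compared between platforms. Between BD 1 and fresh 10x, 4 of the 10 members were higher in BD 1 and 0 lower, where 20.1% of all 16973 genes were called higher and 38.7% in either direction. Vsir was at 9.91 and 12.4 UMIs per 1000000 in the fresh 10x libraries, 35.3 in BD 1 and 31.7 in BD 2, and was higher in BD 1 by a log2 change of 1.52 ± 0.16 (adjusted p = 0.00389 in edgeR). Havcr2 was at 0.960 and 2.53 in fresh 10x, 7.41 in BD 1 and 6.34 in BD 2 (1.95 ± 0.51, adjusted p = 0.0400). Cd80 was at 0.171 and 0.366 in fresh 10x, 1.38 in BD 1 and 0.600 in BD 2 (2.21 ± 0.57, adjusted p = 0.0382). Tigit was at 0.0686 and 0 in fresh 10x and 0.517 in BD 1 (3.69 ± 1.05, adjusted p = 0.0479). With 31 UMIs against 2, its ratio was 15.3, with a counting interval of 3.89 to 132. The BD arm of this test was 1 library, assumed to vary as the fresh 10x pair did. All 4 calls but Vsir were lost without the filter on low counts (adjusted p = 0.0634 to 0.0858), and those of Cd80 and Tigit in DESeq2. Cd274, at 1.13 and 1.17 in fresh 10x and 2.40 in BD 1, did not pass (0.93 ± 0.34, adjusted p = 0.0924), and neither did Lag3, at 1.30 and 1.27 against 1.98 (0.49 ± 0.35, adjusted p = 0.312). The median change of the 10 members was 0.90, beside 0.03 over all genes. Fresh 10x had 41 and 64 macrophage-like cells, BD 1 had 154, and the part of this and of the mitochondrial share in the calls was not tested.

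Within classes BD 1 and fresh 10x were set side by side without a test, as ratios of pooled UMIs with their counting intervals. Vsir was higher in BD 1 than in fresh 10x within macrophage-like (2.71, 2.19 to 3.38), epithelial-like (2.12, 1.86 to 2.42) and fibroblast-like cells (2.03, 1.58 to 2.64). Havcr2 within macrophage-like cells was higher by a smaller ratio, 1.62 (1.24 to 2.14), than in the whole libraries, 4.21 (3.40 to 5.27). Cd80 was higher within fibroblast-like cells (2.97, 1.28 to 7.98). Cd86 went the other way: its macrophage-like level in BD 1 was 0.405 of that in fresh 10x (0.332 to 0.494), although the whole-library change of 0.19 ± 0.40 (adjusted p = 0.736) did not pass. Pdcd1 had a ratio of 2.52 (1.26 to 5.58) in T-like and 0.0982 (0.0319 to 0.258) in macrophage-like cells. BD 2 did not share the T-like difference, with a Pdcd1 level of 0.558 beside 0.490 and 0.541 in fresh 10x and 1.31 in BD 1. Its macrophage-like level was 0.116, beside 0.0294 in BD 1 and 0.406 and 0.225 in fresh 10x. The mix of clusters differed too. The Il1a and Gpnmb clusters held 61 and 35 of the 154 macrophage-like cells in BD 1, against 15 and 2 of 41 (fresh 10x 1) and 11 and 8 of 64 (fresh 10x 2).

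Among the partner lists, BD 1 had 4 of 12 partners higher and 2 lower, 7 of 25 costimulatory genes higher and 2 lower, and 3 of 9 T cell regulators higher. Over all genes 20.1% were higher and 18.6% lower, so the share of costimulatory genes called higher was near that of all genes. Foxp3 was at 106 UMIs in BD 1 and 13 in fresh 10x (2.86 ± 0.46), and Il2ra at 249 and 43 (2.38 ± 0.33). Lgals9 was 1.63 ± 0.16 higher and Nectin2 changed by -1.08 ± 0.12. In the interferon gamma list Irf1 was 1.34 ± 0.21 higher and Ifng changed by -2.32 ± 0.64. Cd244a, among the genes called higher, is listed at 0 in all 3 10x libraries, while its older symbol Cd244 holds 45, 33 and 74 UMIs there and 0 in BD 1 and BD 2. The 2 platforms thus used different symbols for that gene, and its call among the costimulatory genes does not measure a difference in expression. No member had UMIs under any RefSeq synonym.

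Stored 10x against fresh 10x, which asks what storage of the digest does, 0 of the 10 members passed in edgeR, where 0.147% of all genes were called, and 0 in DESeq2. Without adjustment 2 members had a p under 0.05 in edgeR. Pdcd1 was at 0.514 and 0.599 UMIs per 1000000 in fresh 10x and 1.20 in stored 10x (1.17 ± 0.43, adjusted p = 0.302), and Vsir at 9.91, 12.4 and 15.4 (0.53 ± 0.17, adjusted p = 0.258). The comparison uses the same fresh 10x libraries as that of BD 1. Its stored arm was 1 library, assumed to vary as the fresh 10x pair did. Storage cannot be told apart from other differences between the libraries. The lack of calls does not show that storage left the members unchanged. Of 12 partners, 25 costimulatory genes, 7 interferon gamma genes and 9 T cell regulators tested, 0 were called by edgeR.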

How the data were processed

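The authors deposited raw UMI counts per gene and cell for 5 libraries. Cell Ranger 3.0.1 and mm10 are named in the submitters' processing notes, and the tool used for BD Rhapsody is not given in the sources used here. The authors had already selected the cells. A further 3 deposited matrices (1 that pools fresh 10x and 2 with part of the BD 1 cells) were not used. The members and gene lists were chosen with earlier results of these data known.

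Spellings of a symbol were merged. Cells with at least 200 genes were clustered without the 10 members in scanpy 1.11.5 (2000 variable genes, 30 components, 15 neighbours, Leiden 1.0, igraph 0.11.9), and immune cells were clustered again. A cluster was named where at least 3 markers of a class were found in 10% of its cells and its score was 1.5 times the next. Scrublet marked 21 cells of fresh 10x 1 and 0 to 7 of the other libraries, which were left out. In those other 4 libraries it marked too few to have worked, so doublets remain. At least 2 CD3 and 3 C1q UMIs together were found in 9 macrophage-like and 6 T-like cells. Shares at equal depth are the expected shares in 2000 UMIs drawn from each cell.

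Tests used edgeR 4.0.16 (quasi-likelihood, TMM, filterByExpr, Benjamini-Hochberg), with library as a term between classes and group alone for whole libraries. Alternatives included DESeq2 1.42.0, other size factors, no filter, each library left out, stricter cells, Leiden 2.0 and transcript gates. On simulated data with 200 genes changed 4-fold, 100% were recovered for T-like against macrophage-like (10638 genes) and 85.5% for BD 1 against fresh 10x (16641 genes). For macrophage-like against epithelial-like it was 94.5% (10700 genes), and each run had 6 to 12 false calls. The changed genes were drawn only from those above a minimum mean count. All genes had the same spread, and libraries differed only in depth. The recovery therefore does not extend to members with few UMIs. List genes named are at most the 4 called genes with the largest change per list and comparison, and the genes most like a member are the first 3.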

Additional observations from a re-analysis of the deposited data

How the results depend on the processing

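The count of called members stayed within 1.5 times the reported one in 56 recounts under alternatives and moved in 10. These were NK-like against T-like with DESeq2 (1 member in place of 2), and BD 1 against fresh 10x without the filter (1 in place of 4) and with DESeq2 (2). The dendritic-like comparison gave 2 in place of 1 with other size factors, without the filter, with stricter cells and at Leiden 2.0, the added call being Ctla4. Leaving out each library gave 1 (without stored 10x) to 2 members for NK-like against T-like and 1 to 3 for dendritic-like against macrophage-like, with 2 without fresh 10x 1 and 3 without fresh 10x 2. The cause was not tested. No called member changed sign under an alternative that was run. Grouping BD 2 with BD 1 by its title kept 4 calls, with Cd274 (0.86, adjusted p = 0.0273) in place of Cd80 (1.78, adjusted p = 0.0501). Ctla4 in macrophage-like against epithelial-like cells also lost its call with transcript gates (adjusted p = 0.168). At Leiden 2.0 too few NK-like sums were left for that comparison. The whole-library comparisons were not paired, since the groups share fewer than 2 replicate numbers. Comparisons between classes had the library as a term. Only fresh 10x was replicated, and members with few UMIs (Tigit, Pdcd1lg2, Cd80) are limited by depth.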
